A study of Homo sapiens with 6 samples.

Results

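The mismatch repair genes described here were MSH6, MSH3, PMS2, PMS1, MLH3 and EXO1, taken by gene symbol from the expression tables of HCT116 cells. All 6 were found, among 20474 annotated genes and 22782 features in all. RNA came from cells transfected for 48 h with an siRNA against POU2F1, labelled POU2F1 knockdown (siPOU2F1, 3 libraries), or with a non-targeting siRNA, labelled wild type (sicontrol, 3 libraries). HCT116 is an established human colorectal cancer line, and POU2F1 encodes OCT1, a transcription factor that binds octamer sequences. The study concerned tRNA-derived fragments, and this comparison asked what changed in the polyA transcriptome once POU2F1 was lowered. No source used here gives the siRNA sequences. Nothing in the labels ties the libraries of a group to separate cultures, and the p-values therefore cover only library-to-library spread, which may be technical.

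Mismatch repair corrects wrongly paired bases and small loops left behind by DNA polymerase. A MutS heterodimer finds the lesion, with MSH6 or MSH3 as its variable subunit, and a MutL heterodimer follows, with PMS2, PMS1 or MLH3 as its variable subunit. EXO1 then removes the stretch of new strand that holds the error, which is filled in by DNA polymerase delta and sealed by a ligase. Cells without mismatch repair gain and lose bases in runs of a single base, which is known as microsatellite instability. HCT116 is a widely used line of that kind: it lacks functional mismatch repair and is also known to carry a frameshift in MSH3. The values below are RNA levels and say nothing of protein or repair activity.

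Of the 6 genes, 4 hold runs of at least 8 identical bases in their own coding sequence, the kind of sequence that is unstable without mismatch repair. The runs are shown because they are sequence that can itself be altered in a line such as HCT116. The cut at 8 bases does not separate members that can be altered from those that cannot. Sequences are from GENCODE 29 transcripts on GRCh38, the build the submitters' processing notes name as hg38, and are written in the direction of the gene with the run in capitals.
MSH3, exon 7 of 24, chr5:80675096-80675103, plus strand: atgttagggacAAAAAAAAgggcaacattt
MSH6, exon 5 of 10, chr2:47803501-47803508, plus strand: gccggaagataCCCCCCCCttcttagagct
MLH3, exon 2 of 13, chr14:75047901-75047909, minus strand: agagaaagagAAAAAAAAAgaatctagca
MLH3, exon 2 of 13, chr14:75047635-75047642, minus strand: aattgcccaacAAAAAAAAttgcagaacga
PMS2, exon 11 of 15, chr7:5987526-5987533, minus strand: gactggagaagAAAAAAAAgacgtgtccat

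The run in MSH3 has 8 adenines and begins in codon 381, and the run in PMS2 has 8 adenines and begins in codon 411. MLH3 has 9 adenines from codon 583 and 8 from codon 672. MSH6 differs in holding a run of 8 cytosines, from codon 1085. PMS1 and EXO1 held no such run in the transcript with the longest coding sequence. Among 11767 tested genes with a coding sequence, 790 (6.71%) held a run of at least 8 identical bases. Long coding sequences hold more: the share was 16.3% among the 2250 tested genes with at least the coding length of EXO1, the shortest member. FPKM values carry no sequence, so the state of these runs in the cells was not measured here.

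**Figure D1:**
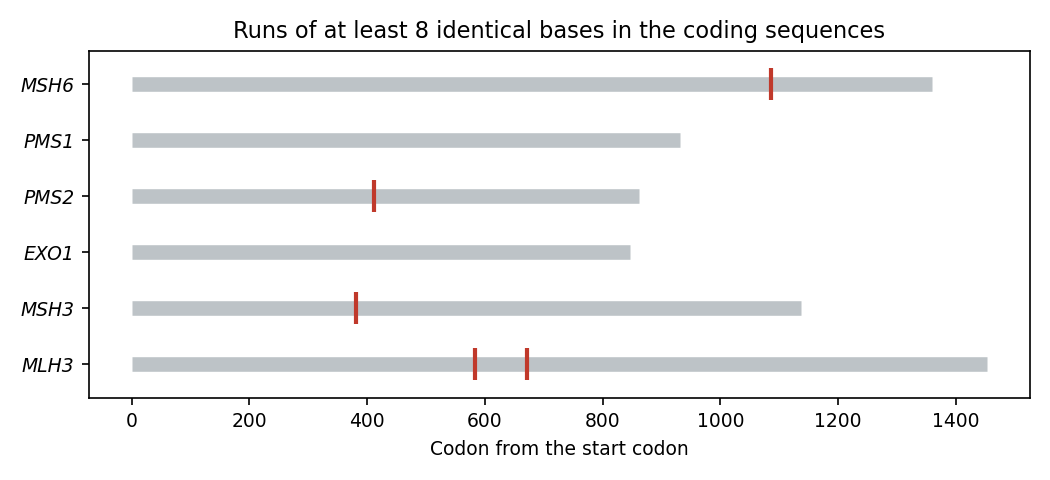
Coding sequences of the 6 genes drawn to scale in codons (grey bars), with each run of at least 8 identical bases as a red mark. MLH3 has 2 marks, MSH6, PMS2 and MSH3 have 1 each, and PMS1 and EXO1 have none.

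Facts of the libraries come before the results that rest on them. POU2F1, the targeted gene, measured 1.87, 1.69 and 1.73 FPKM in siPOU2F1 replicates 1 to 3, against 4.16, 3.595 and 4.26 FPKM in sicontrol replicates 1 to 3. Its log2 fold change was -0.99 (SE 0.14), with a limma adjusted p of 0.0333. The library siPOU2F1 replicate 3 stood apart from its group. Its correlation across genes was r = 0.946 with siPOU2F1 replicate 1 and r = 0.948 with replicate 2, but r = 0.977 with sicontrol replicate 2. Replicates 1 and 2 of siPOU2F1 were the most alike of all pairs, at r = 0.989, whereas sicontrol libraries stood at 0.972 to 0.984 with each other. Results that turn on siPOU2F1 replicate 3 are therefore also given without it. In those fits the spread within siPOU2F1 rests on this most alike pair. The call of POU2F1 itself was lost without any 1 of the other 5 libraries (adjusted p = 0.114 to 0.220), while its log2 fold change stayed between -1.06 and -0.95. Of 12 colorectal epithelial markers, 7 had at least 1 FPKM in every library, EPCAM among them, whereas KRT20, CDX1, LGR5 and CEACAM5 stayed under that level. The summed level of the 12 was 3851 to 5449 FPKM in siPOU2F1 and 2826 to 3705 FPKM in sicontrol libraries. KRT8 and KRT18 weigh most in it, with means of 1684 and 2023 FPKM in siPOU2F1 against 857 and 1373 FPKM in sicontrol cells. EPCAM (215 against 213 FPKM) and CDH1 (23.6 against 21.8 FPKM) differed little, and none of the 8 tested markers was called. The part of this difference in the results was not tested. Leukocyte markers summed to at most 0.519 FPKM in siPOU2F1 and 0.564 FPKM in sicontrol libraries, and endothelial markers to at most 0.681 FPKM in siPOU2F1 and 0.916 FPKM in sicontrol libraries. Fibroblast markers summed to at most 3.69 FPKM in siPOU2F1 and 2.67 FPKM in sicontrol libraries, and smooth muscle markers to at most 7.52 FPKM in siPOU2F1 and 6.92 FPKM in sicontrol libraries. Absolute depth is unknown from FPKM. Low values placed the depth of siPOU2F1 replicate 1 at 0.779 of that of sicontrol replicate 1, from 15 of 811 low genes. The other 4 libraries were placed at 0.901 to 0.976, likewise from few genes, so these depths are rough.

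All 6 mismatch repair genes were expressed at a moderate level in HCT116, in the order MSH6, PMS1, PMS2, EXO1, MSH3 and MLH3 by their means over both groups. Both close pairs stood the other way round in sicontrol cells. PMS1 averaged 12.1 FPKM and PMS2 9.51 FPKM in siPOU2F1, against 11.9 FPKM for PMS1 and 12.9 FPKM for PMS2 in sicontrol cells. MSH3 averaged 5.86 FPKM and MLH3 5.35 FPKM in siPOU2F1, against 5.93 FPKM for MSH3 and 6.17 FPKM for MLH3 in sicontrol cells. FPKM is scaled to transcript length, so these levels can be set beside each other, but only roughly. The annotation behind the lengths is not stated, and limits of the MSH6 and PMS2 values are given below. MSH6 had the highest value, with 22.8 ± 2.90 FPKM over the 6 libraries (SD). Its lowest library, at 20.7 FPKM, was above the highest library of PMS1, at 14.3 FPKM. PMS1 (12.005 ± 1.71 FPKM), PMS2 (11.2 ± 2.66 FPKM) and EXO1 (9.57 ± 1.39 FPKM) overlapped as neighbours in that order. EXO1 stood above MSH3 in all 6 libraries with separate ranges. MSH3 (5.90 ± 0.757 FPKM) and MLH3 (5.76 ± 0.732 FPKM) overlapped, with MSH3 the higher in 3 of 6 libraries. Against the mean levels of all 11831 tested genes, MSH6 lay at percentile 72.0 and MLH3 at percentile 30.2.

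**Figure D2:**
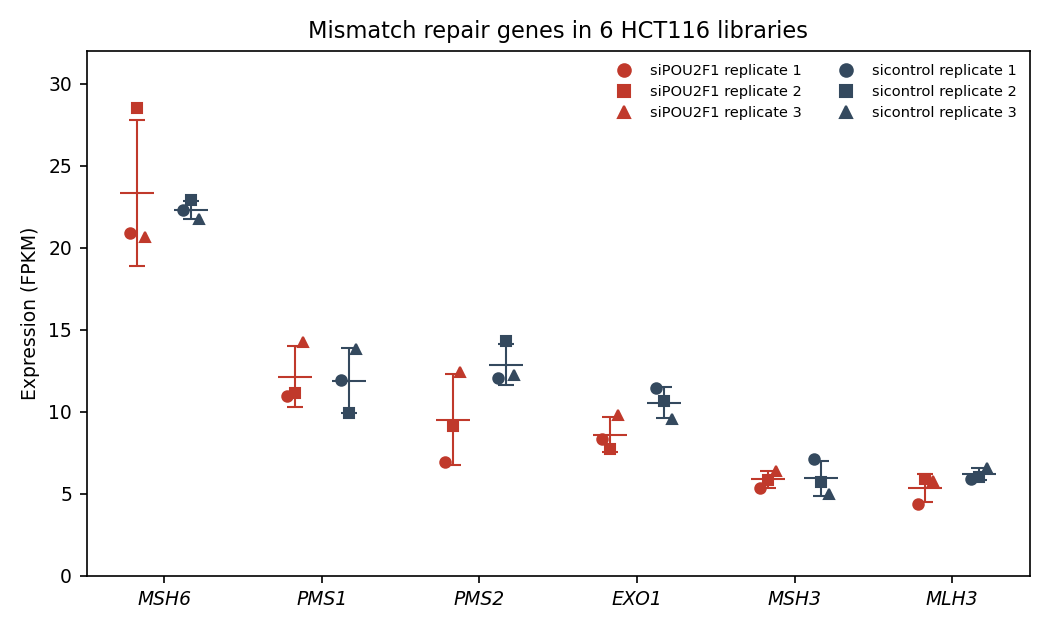
Expression in FPKM of each gene in each library, siPOU2F1 in red left of sicontrol in dark blue, with the mean and SD of 3 libraries as a bar. MSH6 lies above the other 5 genes in every library, and the ranges of siPOU2F1 and sicontrol overlap for every gene except MLH3.

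No member was called changed between siPOU2F1 and sicontrol cells at an adjusted p under 0.05 (limma over all 11831 tested genes). Over all tested genes 147, or 1.24%, were called, a count that ran from 0 to 2954 when 1 library was left out. At an unadjusted p under 0.05 there were 0 of the 6 members and 2143 (18.1%) of all tested genes. The median log2 fold change of the members was -0.10, with 4 of 6 negative, beside a median of -0.01 with 51.5% negative over all tested genes. Without siPOU2F1 replicate 1 the members' median was -0.0090. These are fold changes on the log2(FPKM + 0.5) scale, siPOU2F1 minus sicontrol, which understate the change of low genes.

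The subunits that find the lesion showed no call. MSH6 (ENSG00000116062, chr2:47695530-47810101, plus strand in GENCODE 29) serves in the complex for base mismatches and short loops. It measured 20.9, 28.5 and 20.7 FPKM in siPOU2F1 replicates 1 to 3, against 22.3, 22.9 and 21.8 FPKM in sicontrol replicates 1 to 3. Replicate 2 of siPOU2F1 was the only library above the sicontrol range, and the other siPOU2F1 libraries lay just below it. The log2 fold change was 0.05 (SE 0.15, 95% interval -0.29 to 0.39), with a limma adjusted p of 0.868. Without siPOU2F1 replicate 2 the log2 fold change was -0.10 (adjusted p = 0.823). MSH3 (ENSG00000113318, chr5:80654648-80876460, plus strand), the alternative subunit for larger loops, measured 5.34, 5.85 and 6.41 FPKM in siPOU2F1 replicates 1 to 3, against 7.09, 5.70 and 4.996 FPKM in sicontrol replicates 1 to 3. All siPOU2F1 values lay within the sicontrol range. The log2 fold change was -0.005 with a 95% interval from -0.38 to 0.37 (limma, adjusted p = 0.988).

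Because MSH6 and MSH3 compete for the same partner, their ratio was also taken, 1 of 3 ratios chosen after the values were known. MSH6 over MSH3 was 4.002 ± 0.827 in siPOU2F1 and 3.84 ± 0.625 in sicontrol cells (SD, n = 3 each; exact two-sided permutation p = 0.9, 0.9 adjusted). The MSH6 value carries a limit of annotation. Its exons share 1644 bases, 21.0% of its exonic length, with FBXO11 on the opposite strand, and no source used here states whether counting used strand.

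Among the MutL subunits, PMS2 had the lowest p. PMS2 (ENSG00000122512, chr7:5973239-6009125, minus strand) carries the endonuclease that nicks the new strand. It measured 6.95, 9.15 and 12.4 FPKM in siPOU2F1 replicates 1 to 3, against 12.05, 14.3 and 12.2 FPKM in sicontrol replicates 1 to 3. Replicates 1 and 2 of siPOU2F1 were below every sicontrol library, while replicate 3 lay inside the sicontrol range. The mean was 9.51 ± 2.77 FPKM in siPOU2F1 and 12.9 ± 1.26 FPKM in sicontrol cells (SD, n = 3 each), so that siPOU2F1 stood at 74.0% of sicontrol. Its log2 fold change was -0.45 (SE 0.21, 95% interval -0.94 to 0.04), with a limma adjusted p of 0.308. Without siPOU2F1 replicate 3 it was -0.65 and called (adjusted p = 0.0273), in a fit that called 25% of all tested genes. Without siPOU2F1 replicate 1 it was -0.25 (adjusted p = 0.674). PMS2 is known to have near-identical copies elsewhere on its chromosome. The tables had 0 features named as such copies, and whether reads shared with them entered the PMS2 value was not tested.

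PMS1 (ENSG00000064933, chr2:189784085-189877629, plus strand), a MutL subunit whose role in human repair is less clear, measured 10.97, 11.2 and 14.3 FPKM in siPOU2F1 replicates 1 to 3, against 11.9, 9.89 and 13.8 FPKM in sicontrol replicates 1 to 3. The groups overlapped almost fully. The log2 fold change was 0.03 with a 95% interval from -0.36 to 0.43 (limma, adjusted p = 0.930). MLH3 (ENSG00000119684, chr14:75013764-75051532, minus strand) is best known for meiotic crossovers and has an endonuclease motif like that of PMS2. It measured 4.39, 5.88 and 5.78 FPKM in siPOU2F1 replicates 1 to 3, against 5.89, 6.04 and 6.59 FPKM in sicontrol replicates 1 to 3. MLH3 was the only member whose groups did not overlap, by a margin of 5.884 against 5.889 FPKM, and 12% of all tested genes were likewise lower in every siPOU2F1 library (11.3% were higher in every one). The log2 fold change was -0.20 (SE 0.15, 95% interval -0.55 to 0.16), with a limma adjusted p of 0.485, and it was -0.07 without siPOU2F1 replicate 1 (adjusted p = 0.888). With 3 libraries a group the two-sided exact permutation p cannot go below 0.1, which was its value for MLH3.

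The ratio of PMS2 to PMS1 was 0.633, 0.819 and 0.873 in siPOU2F1 replicates 1 to 3, against 1.01, 1.45 and 0.882 in sicontrol replicates 1 to 3. The groups did not overlap, narrowly, by 0.873 against 0.882, in a ratio chosen after the values were known. Of single tested genes 12% were lower in every siPOU2F1 library, and the share among ratios was not taken. The exact two-sided permutation p was 0.1, the lowest it can take, or 0.3 adjusted over the 3 ratios. PMS2 over MLH3 was 1.76 ± 0.337 in siPOU2F1 and 2.09 ± 0.261 in sicontrol cells (SD, n = 3 each; exact permutation p = 0.3, 0.45 adjusted).

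EXO1 (ENSG00000174371, chr1:241847967-241895148, plus strand), the exonuclease, measured 8.32, 7.70 and 9.79 FPKM in siPOU2F1 replicates 1 to 3, against 11.4, 10.7 and 9.54 FPKM in sicontrol replicates 1 to 3. Replicate 3 of siPOU2F1 and replicate 3 of sicontrol were the libraries that overlapped. The mean was 8.60 ± 1.07 FPKM in siPOU2F1 and 10.5 ± 0.944 FPKM in sicontrol cells (SD, n = 3 each), so that siPOU2F1 stood at 81.6% of sicontrol. The log2 fold change was -0.28 (SE 0.14, 95% interval -0.60 to 0.04), with a limma adjusted p of 0.323. It stayed negative without any 1 library, from -0.37 to -0.21, with no call. With libraries weighted by their fit, EXO1 (-0.45, adjusted p = 0.00437) and PMS2 (-0.51, adjusted p = 0.012) were called, but so were 50.4% of all tested genes.

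**Figure D3:**
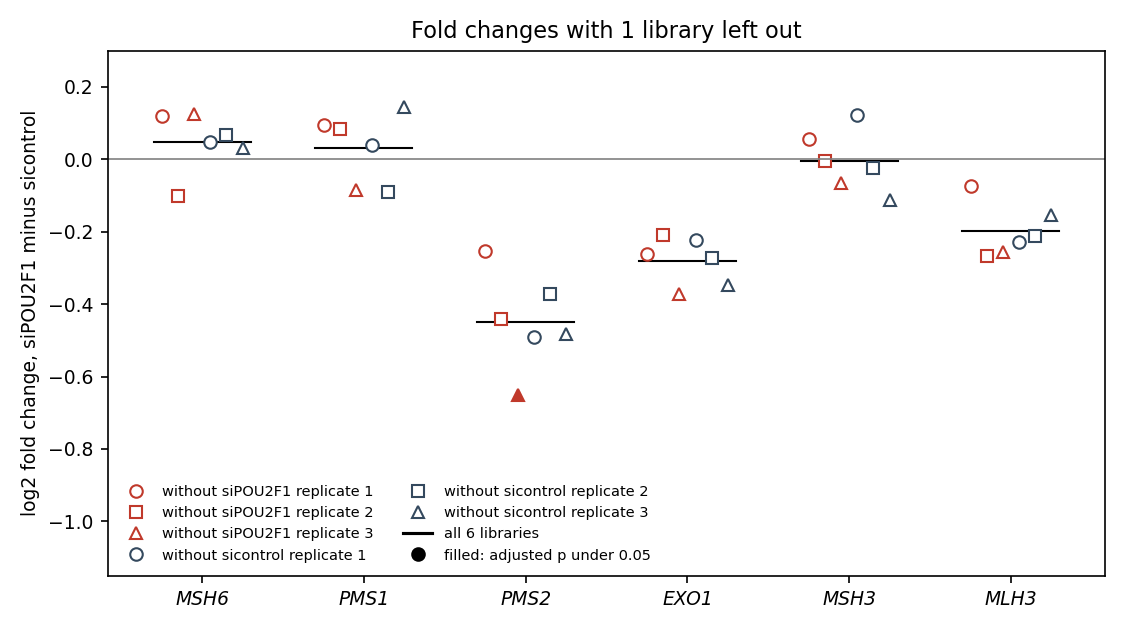
Log2 fold change of each gene, siPOU2F1 minus sicontrol, when 1 library is left out (symbols, red for a siPOU2F1 library and dark blue for a sicontrol library) and with all 6 (black line). Only PMS2 without siPOU2F1 replicate 3 is filled (adjusted p under 0.05), and PMS1, MSH3 and MSH6 move across 0.

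POU2F1 is known to bind the octamer ATGCAAAT, and the start regions of the members were searched for it on both strands. RefSeq windows of GRCh38.p14, from 250 bases before to 50 after the start, were held for all 6 genes. None of the 6 genes had the octamer in any of its windows, and neither did they have its first 7 letters, ATGCAAA. Of the windows of 27305 genes, taking the first listed for each, 1.80% held the octamer and 4.51% the 7 letters. The pentamer CCAAT, read by the factor NF-Y, was in the first window of PMS1, PMS2 and MSH6, and in 35.7% of all genes. The E2F-type words TTTGGCGC and TTTCGCGC were in 0.659% and 0.546% of all genes. MSH3 held both, on opposite strands and overlapping, and EXO1 held TTTCGCGC. A match is a description of letters and not a bound site.

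The window of PMS2 is shown because it holds the starts of both PMS2 and AIMP2, a gene read in the other direction. Letters run in the direction of PMS2, and CCAAT on either strand is in capitals.
PMS2, GRCh38.p14, chr7:6009057-6009356, minus strand: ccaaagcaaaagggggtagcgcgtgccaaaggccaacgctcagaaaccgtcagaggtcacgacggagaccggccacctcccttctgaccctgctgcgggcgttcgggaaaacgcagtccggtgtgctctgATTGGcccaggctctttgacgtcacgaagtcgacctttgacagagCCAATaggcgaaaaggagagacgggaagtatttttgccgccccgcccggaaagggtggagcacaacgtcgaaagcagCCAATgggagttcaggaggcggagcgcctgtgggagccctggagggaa

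PMS1 and ORMDL1 start 286 bases apart on opposite strands in GENCODE 29, and PMS2 and AIMP2 start 120 bases apart. AIMP2, a scaffold of the aminoacyl-tRNA synthetase complex, measured 26.5, 26.9 and 76.7 FPKM in siPOU2F1 replicates 1 to 3, against 49.8, 64.5 and 44.4 FPKM in sicontrol replicates 1 to 3. Like PMS2, it was lowest in siPOU2F1 replicates 1 and 2, but in replicate 3 it was above every sicontrol library. The log2 fold change was -0.45 (SE 0.41), with a limma adjusted p of 0.548. Without siPOU2F1 replicate 3 it was -0.96 and called (adjusted p = 0.0125), in a fit that called 25% of all tested genes. Without siPOU2F1 replicate 1 it was -0.20 (adjusted p = 0.896), and without siPOU2F1 replicate 2 it was -0.21 (0.895). ORMDL1, a regulator of sphingolipid synthesis beside PMS1, had a difference of -0.19 on the log2 scale (limma, adjusted p = 0.563, not called). It shares 103 exonic bases with PMS1, 2.13% of the exonic length of PMS1. FBXO11, an F-box protein whose exons overlap those of MSH6, had -0.19 (adjusted p = 0.515).

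**Figure D4:**
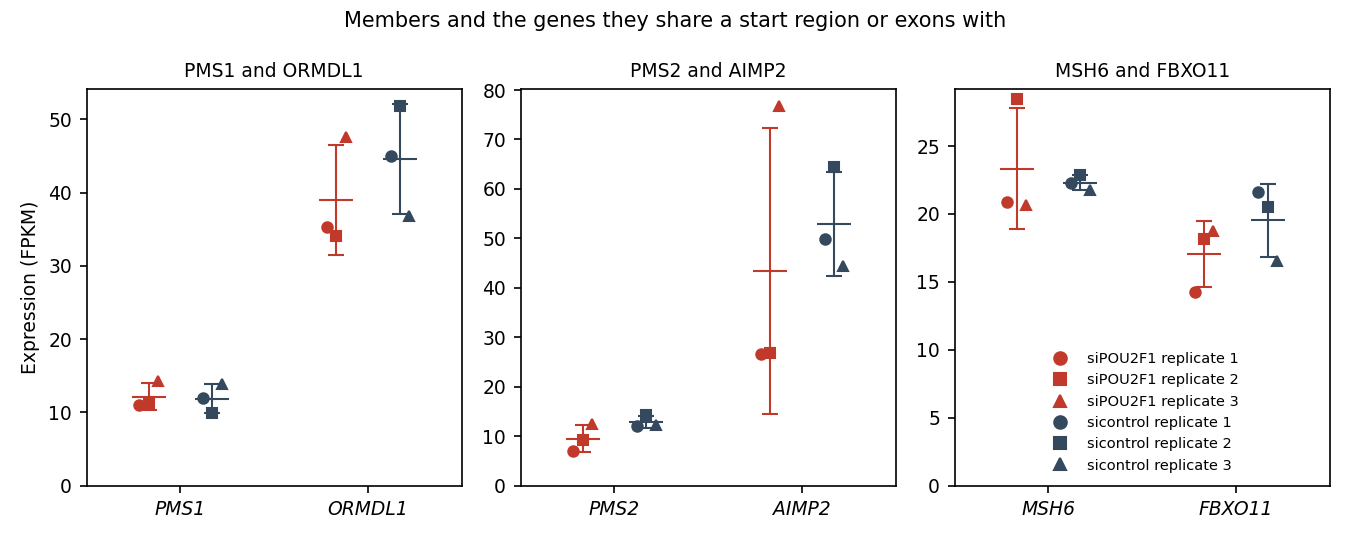
Expression in FPKM of PMS1, PMS2 and MSH6 and of the listed gene each shares a start region or exons with. Red is siPOU2F1, left of sicontrol in dark blue, with mean and SD of 3 libraries. AIMP2 and PMS2 are lowest in siPOU2F1 replicates 1 and 2.

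Genes farther from the members were not called either. ACYP1, an acylphosphatase 1689 bases from MLH3, differed by 0.34 on the log2 scale (limma, adjusted p = 0.232). EIF2AK1, the heme-regulated kinase of translation initiation, lies 13119 bases from PMS2 and had 0.24 (0.298). Both were higher in every siPOU2F1 library, as were 11.3% of all tested genes. Both were called without siPOU2F1 replicate 3 (adjusted p = 0.0195 and 0.0411), in a fit that called 25% of all tested genes. Neither was called without siPOU2F1 replicate 1 (adjusted p = 0.5599 for ACYP1 and 0.6475 for EIF2AK1) or without siPOU2F1 replicate 2 (0.6365 and 0.6814). ASNSD1, 113254 bases from PMS1, had -0.23 (0.496, called without siPOU2F1 replicate 3 at 0.0247), NEK9 -0.17 (0.418) and ZC2HC1C -0.16 (0.640), all by limma. JKAMP, listed with the neighbours although it lies 15508354 bases from MLH3, had -0.32 (0.217). RASGRF2 was below the level tested.

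The genes that complete the repair after excision held no call among 16 tested. They were the sliding clamp PCNA and its loader RFC1 to RFC5, the single-strand binding proteins RPA1 to RPA3, the DNA polymerase delta subunits POLD1 to POLD4, the ligase LIG1, the nuclease FEN1 and HMGB1. Their median log2 fold change was -0.12, with 11 of 16 negative, beside -0.01 over all tested genes. RPA1, the large subunit of the protein that coats single-stranded DNA, measured 20.2, 19.6 and 17.1 FPKM in siPOU2F1 replicates 1 to 3, against 25.8, 28.6 and 32.05 FPKM in sicontrol replicates 1 to 3. Every siPOU2F1 library was lower, as for 12% of all tested genes, and siPOU2F1 replicate 3 was the lowest of all. Its log2 fold change was -0.59 (SE 0.12), with a limma adjusted p of 0.0777, and without siPOU2F1 replicate 3 it was called (-0.52, adjusted p = 0.0252). RFC5 had -0.19 (0.370), FEN1 -0.43 (0.391) and RFC2 -0.19 (0.436). Without siPOU2F1 replicate 3, 4 of the 16 were called, FEN1 and RFC2 with RPA1 among them, which is the 25% of the background in that fit.

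**Figure D5:**
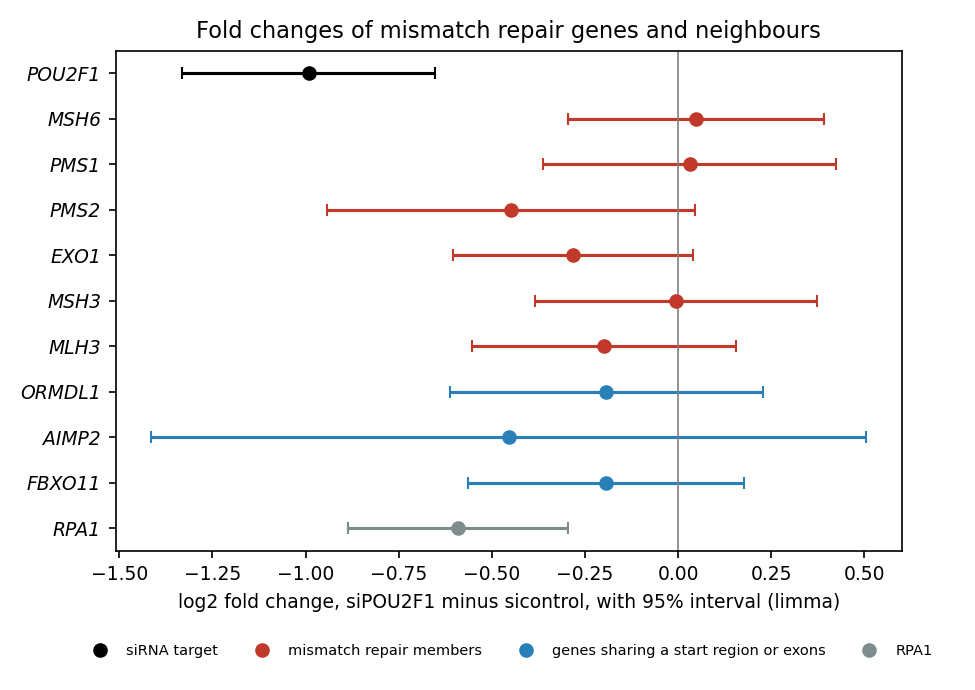
Log2 fold change, siPOU2F1 minus sicontrol, with its 95% interval from limma. Shown are POU2F1 (black), the 6 mismatch repair genes (red), listed genes sharing a start region or exons with them (blue) and RPA1 (grey). The intervals of all 6 members include 0, whereas those of POU2F1 and RPA1 do not.

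Of 8 genes tied to the MutS and MutL proteins, 6 were tested and none was called. The meiotic MutS genes MSH4 and MSH5 were below the level tested, with at most 0.482 FPKM. MCM8, a helicase subunit of recombination, measured 11.5, 13.5 and 17.3 FPKM in siPOU2F1 replicates 1 to 3, against 17.9, 20.3 and 19.3 FPKM in sicontrol replicates 1 to 3, with no overlap. Its log2 fold change was -0.45 (limma, adjusted p = 0.219). Without siPOU2F1 replicate 3 it was called (adjusted p = 0.0181), the only 1 of the 6, in a fit that called 25% of all tested genes. SETD2, the histone H3 lysine 36 methyltransferase whose mark is bound by MSH6, had -0.33 (0.261), with every siPOU2F1 library below every sicontrol library. Over all tested genes 12% were, like MCM8 and SETD2, lower in every siPOU2F1 library. MCM9, the partner of MCM8, had 0.29 (0.405) and HROB, which loads them, -0.25 (0.439).

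Mismatch repair genes are expressed with DNA replication, so replication and proliferation genes were set beside them. None of 24 tested genes of this list was called. Their median log2 fold change was -0.03 with 13 negative, beside -0.01 with 51.5% negative over all tested genes. RRM2, a ribonucleotide reductase subunit, had 0.36 (adjusted p = 0.179), CDC6, a replication licensing factor, -0.72 (0.202), UHRF1, which guides maintenance of DNA methylation, -0.56 (0.240) and TYMS, thymidylate synthase, -0.20 (0.367), all by limma. RRM2, CDC6 and UHRF1 were called without siPOU2F1 replicate 3 (adjusted p = 0.0182, 0.00761 and 0.0381), in a fit that called 25% of all tested genes. Base excision repair, a separate pathway for damaged bases, likewise held 0 called of 15 tested, with a median of -0.01. Its lowest p were those of the glycosylases NEIL3 (-0.55, adjusted p = 0.205), MUTYH (0.35, 0.256), TDG (-0.49, 0.285, called without siPOU2F1 replicate 3 at 0.0381) and NEIL1 (-0.31, 0.398).

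The library-to-library patterns of the members were alike for some pairs and not for others. Between members, the highest Pearson r over the 6 libraries were those of PMS2 with MLH3 (0.820) and with EXO1 (0.772). The lowest was that of MSH6 with EXO1 (-0.479). Against all other tested genes, 1010 followed PMS2 with a Pearson r of at least 0.9 over the 6 libraries and 656 followed EXO1, but 38 followed MLH3, 35 PMS1, 29 MSH3 and 14 MSH6. The genes most like PMS2 were XXYLT1 (r = 0.997) and ENOSF1 (r = 0.994), and those most like EXO1 were TMEM63A (r = 0.994) and ZNF792 (r = 0.993). The other 4 members had fewer close followers. MLH3 was closest to SENP2 (r = 0.974) and ATF4 (r = 0.970), and PMS1 to MRPS10 (r = 0.999) and TUBA1A (r = 0.996). MSH3 was closest to RNF217 (r = 0.993) and ARMCX3 (r = 0.969), and MSH6 to ZNF595 (r = 0.963) and C1orf52 (r = 0.956). Every gene was measured in the same 6 libraries, so differences in depth or composition between them enter each r, and with 6 points these values are descriptions only.

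In the 3′ UTRs, the 7-base word AACTGCA, picked earlier from the fold changes of these same libraries as common in genes that fell, was present in MSH6 and MLH3 only. It was present in 12.4% of 11520 tested genes with a 3′ UTR of at least 20 bases, and the MSH6 and MLH3 3′ UTRs are also the longest of the 6, at 3241 and 3318 bases. MLH3 held the further word AGAATGA as well, which was in 14.9% of the genes. Each 3′ UTR was that of the transcript with the longest coding sequence, and the longest transcript where these tied. Presence of either word is a description only. Neither MSH6 nor MLH3 was called, and the other 4 members held neither word. The sites of AACTGCA are shown with the word in capitals, in the direction of the gene.
MSH6, chr2:47809897-47809903, plus strand: actatggtcaaAACTGCAattaactttcg
MLH3, chr14:75014849-75014855, minus strand: gagtgacttcaAACTGCAcagtccttccc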

How the data were processed

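PolyA RNA of HCT116 cells was sequenced from 6 libraries made from 2 µg of total RNA with a directional kit, per the labels' protocols. FPKM, as deposited by the authors in a separate table for each library, scales fragments to transcript length and library size. HISAT2 2.0.4, Bowtie2 2.2.5, StringTie 2.1.2 and hg38 are named per the submitters' processing notes, without their order. No source used here states the annotation release, filters or strand setting. Absolute depth cannot be read from FPKM. Relative depth was taken from the most common ratio of low values (15 to 27 genes per library, out of 811 to 971 low genes).

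Values were used as deposited, as log2(FPKM + 0.5). The 11831 annotated genes whose mean reached 1 FPKM entered a fit by limma 3.58.1 (R 4.3.3, with a trend of variance on level, and only group as a term, Benjamini-Hochberg adjustment over all of them), and genes were called at an adjusted p under 0.05. Assembled transcripts (2308) were left out. The procedure was tested on simulated data. The simulated noise was independent for each gene and library, so that test does not cover deviations that genes of a library share. Alternatives were other pseudocounts, filters, scalings, library weights, a replicate block and leaving out each library. Coding sequences, 3′ UTRs and gene positions came from GENCODE 29 and start regions from RefSeq, read with Python 3.11.15.

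Members and gene lists were chosen with earlier results of these data known. Named genes were the members, POU2F1, the listed neighbours of the members, and from each other list every called gene and the 4 with the lowest p. Genes outside the list that may share a start region or exons with a member were left out. For likeness, the 2 genes with the highest Pearson r were named per member. Start-region words, ratios and 3′ UTR words were added outside this rule. 1 listed gene is not reported here.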

Additional observations from a re-analysis of the deposited data

How the results depend on the processing

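All 6 members lay outside the call in every fit except those named here. With library weights 2 were called, and without siPOU2F1 replicate 3 there was 1; over the 6 fits that leave out a library the count was 0 to 1. The count of all called genes, 147, was 72 with no filter on low values, 5963 with library weights and 0 with the replicate block, and ran from 0 to 2954 without 1 library. It was 0 when siPOU2F1 replicate 1, siPOU2F1 replicate 2 or sicontrol replicate 1 was left out (limma, with 1255, 1176 and 1333 genes at an unadjusted p under 0.05), 5 without sicontrol replicate 2 and 9 without sicontrol replicate 3. Under the replicate block 1208 genes had an unadjusted p under 0.05, and no member was called. The labels do not say that the number marks a pairing, and it is not taken as one. Deviations of same-numbered libraries from their group means correlated at 0.13, -0.54 and -0.51 for numbers 1 to 3. Deviations from the mean of 3 libraries are tied to each other, so these values cannot settle whether a number was shared as a batch. For differently numbered libraries the correlations ran from -0.51 to 0.64, the highest for siPOU2F1 replicate 3 with sicontrol replicate 2. What lies behind it was not tested.

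The median log2 fold change of the members ran from -0.170 to -0.0090 without 1 library, its highest being without siPOU2F1 replicate 1. PMS1 turned to -0.0861 with library weights and ran from -0.0888 to 0.14 without 1 library. MSH3 turned to 0.00246 with upper quartile scaling and 0.0426 with quantile normalization, and ran from -0.11 to 0.12 without 1 library. MSH6 ran from -0.10 to 0.13. With library weights, which called 50.4% of all tested genes, the calls were 8 of 16 genes of excision and resynthesis, 4 of 6 tied to MutS and MutL, 8 of 9 neighbours, 7 of 24 replication genes and 7 of 15 base excision genes, against 0 in each list as reported. Without siPOU2F1 replicate 3, which called 25% of all tested genes, the counts in the same lists were 4 of 16, 1 of 6, 4 of 9, 3 of 24 and 1 of 15, the highest with 1 library left out, and the lowest was 0. POU2F1 lost its call with no filter (adjusted p = 0.065), with the replicate block (0.297) and without any library other than siPOU2F1 replicate 3 (0.114 to 0.220). Its log2 fold change was -0.99 in the fits with no filter and with the block and -1.06 to -0.95 in those without 1 library, and it was not tested with the filter at 5 FPKM. The cause of these changes was not tested. The tables hold no read counts, so the depth behind each value is unknown.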
